A study of Mus musculus with 10 samples.

Results

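The 45 genes described here encode the receptors through which peptide hormones and neuropeptides act on cells, and they were taken by symbol from a table of 54532 mouse genes. All 45 were found, and 26 of them passed the filter on low counts that left 15703 genes for testing. RNA was sequenced from the epithelium of the small intestine of 5 mice, litter-matched, 10 weeks old and of CD1/ICR stock. They carried the Gucy2c-GFP transgene, in which the promoter of Gucy2c drives the green fluorescent protein GFP. Gucy2c encodes guanylyl cyclase C, an epithelial receptor that makes cGMP. From each mouse, 20000 cells of high fluorescence (GUCY2C-hi) and 20000 of medium fluorescence (GUCY2C-med, called Medium or Lo in the labels) were sorted. This gave 10 libraries, 5 in each group. That each mouse gave both groups is a reading of the study's methods and the labels. Both groups carried the same transgene and received no treatment, and a GUCY2C-hi sample is a gate on fluorescence and not a single cell type.

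Most of these receptors span the membrane 7 times and signal through G proteins. The somatostatin receptors and most galanin and neuropeptide Y receptors act through Gi, which lowers cAMP, receptors of the secretin family and the melanocortin receptors act through Gs, which raises it, and those for vasopressin, cholecystokinin, neurotensin and tachykinins mostly act through Gq and calcium. The insulin receptor is a tyrosine kinase, and the receptors for growth hormone, prolactin and leptin recruit JAK kinases and STAT factors. In the gut, peptides released by enteroendocrine cells, the hormone-secreting cells of the epithelium, reach such receptors on neighbouring epithelial cells, on nerve endings and on the secreting cells themselves.

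The libraries held between 10903958 and 15307932 reads counted on genes. Levels are cpm, the reads of a gene scaled to a common library size after TMM normalization, and 3 counts corresponded to between 0.181 and 0.281 cpm. Gucy2c itself was at 1322 cpm ± 526 in GUCY2C-hi cells and 404 cpm ± 64.7 in GUCY2C-med cells (SD, n = 5), without overlap between the groups, with a log2 fold change of 1.71 (SE 0.32, adjusted p = 0.0019, and 0.0116 with the mouse as replicate block). The summed level of 15 enteroendocrine genes ran from 8667 to 66959 cpm in GUCY2C-hi and from 96.3 to 391 cpm in GUCY2C-med libraries, and 14 of the 15 were called higher there than in GUCY2C-med cells. Among GUCY2C-hi libraries it was lowest in mouse 15 and next lowest in mouse 12, at 28077 cpm. Enterocyte genes were present in both groups: 15 of them summed to 35115 and 35912 cpm in GUCY2C-hi cells of mice 12 and 15, to between 3722 and 5301 cpm in the other 3 mice, and to between 66343 and 83882 cpm in GUCY2C-med cells, with 2 of the 15 called lower in GUCY2C-hi cells, 14 of 15 lower at an unadjusted p under 0.05, 13 without overlap between the groups, and a median log2 fold change of -2.23. Genes of forebrain neurons, which the labels do not mention, summed to between 153 and 2490 cpm in GUCY2C-hi and between 817 and 1822 cpm in GUCY2C-med libraries, and no gene of these 3 lists was without counts in every library. Paneth and goblet cell genes were present in both groups too, and none was called. Paneth genes summed to 45665, 6181, 10362, 26851 and 7952 cpm in GUCY2C-hi cells of mice 2, 7, 12, 14 and 15. In GUCY2C-med cells they ran from 6539 to 15358 cpm. Goblet genes ran from 3018 to 23490 cpm in GUCY2C-hi cells, highest in mouse 2, and from 4871 to 13055 cpm in GUCY2C-med cells.

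In GUCY2C-hi cells 15 of the 45 receptors rose and 2 fell relative to GUCY2C-med cells, 9 were tested and not called, and 19 were too low to test. Calls needed an adjusted p below 0.01 in edgeR's quasi-likelihood test, with Benjamini-Hochberg adjustment over all genes tested. Among all 15703 genes tested, 13.9% were called higher and 8.79% lower. The median log2 fold change was 3.48 over the 26 receptors tested and 0.09 over all genes tested. A receptor could pass the filter through 1 group alone, so these figures describe the receptors and test nothing about them as a set. For each of the 15 the lowest GUCY2C-hi library lay above the highest GUCY2C-med library, and for each of the 2 the reverse held, a separation shown by 16.7% and 13.2% of all genes tested. With the mouse as a replicate block in edgeR, 11 of the 15 and both of the 2 kept their call. In bulk RNA of sorted cells, fewer cells that carry a receptor and less RNA per cell cannot be told apart.

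**Figure D1:**
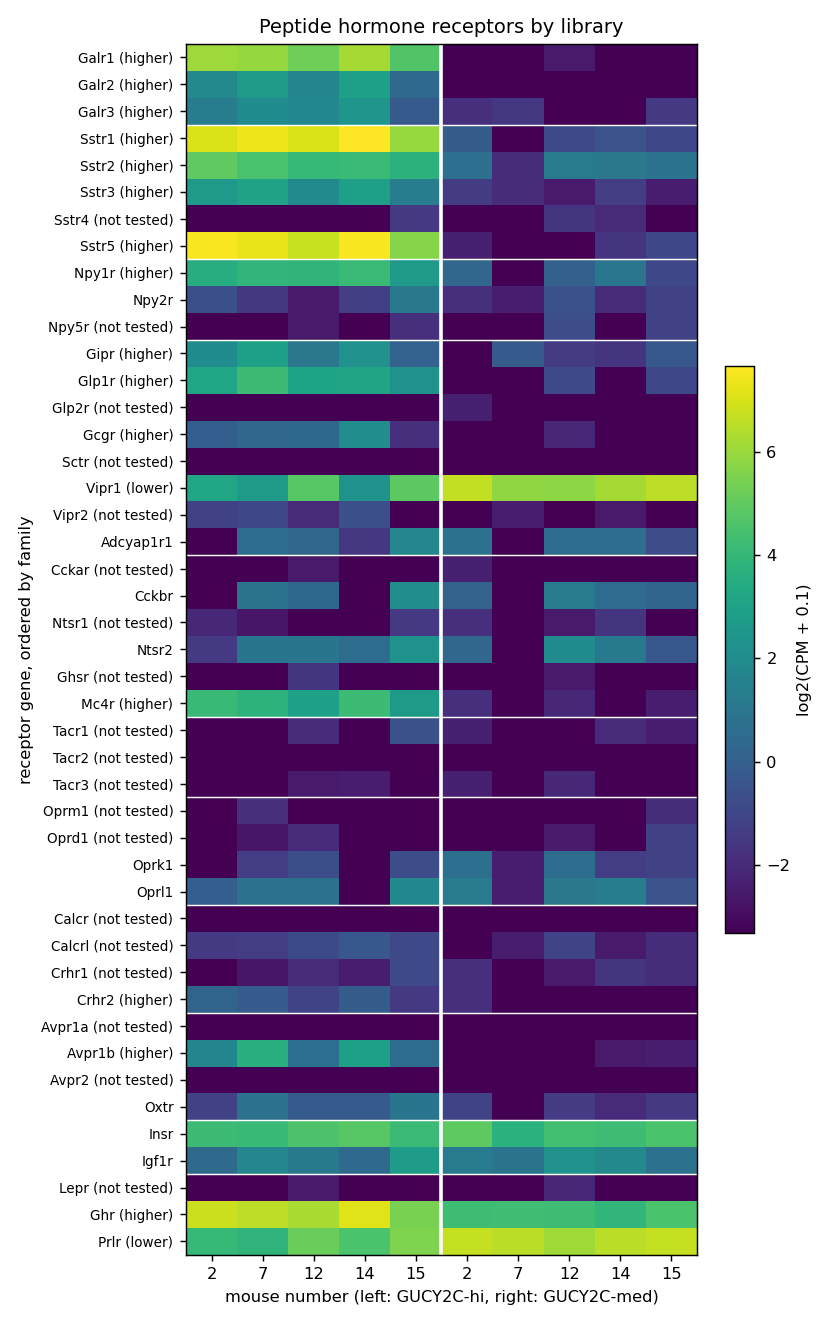
Level of each of the 45 receptor genes (rows, grouped by family) in each library (columns, by mouse number, GUCY2C-hi left and GUCY2C-med right), coloured by log2(cpm + 0.1), with the result of the test beside the symbol. The 15 receptors marked higher are lighter on the left, Vipr1 and Prlr are lighter on the right, and 19 rows marked not tested are dark throughout.

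Somatostatin is the broad inhibitor of gut hormone release, and 4 of its 5 receptors rose in GUCY2C-hi cells. Values by library are given below for mice 2, 7, 12, 14 and 15 in that order. Sstr1 was at 135, 169, 133, 203 and 61.7 cpm in GUCY2C-hi cells and at 0.843, 0, 0.432, 0.601 and 0.428 cpm in GUCY2C-med cells. Sstr5, through which somatostatin also lowers insulin release, was at 188, 157, 106, 188 and 51.3 cpm and at 0.094, 0, 0, 0.225 and 0.428 cpm. For both genes the lowest GUCY2C-hi library, that of mouse 15, lay far above the highest GUCY2C-med library. The log2 fold change was 8.24 for Sstr1 (SE 0.57, adjusted p = 4.4e-06) and 9.80 for Sstr5 (SE 0.68, adjusted p = 4.4e-06). Without the GUCY2C-med library of mouse 15, which held the most counts of Sstr5 in that group, the latter was 10.60. Sstr1 lies at chr12:58211772-58214444 on the plus strand and Sstr5 at chr17:25489875-25497288 on the minus strand of GRCm38, the build on which all positions are given.

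Sstr2, the subtype through which somatostatin restrains most islet and gut endocrine cells, was lower in level but was found in both groups. It was at 31.8, 22.5, 16.2, 17.8 and 13.3 cpm in GUCY2C-hi cells and at 1.498, 0.161, 2.16, 1.95 and 1.71 cpm in GUCY2C-med cells. It rose by 3.75 on the log2 scale (SE 0.49, adjusted p = 2.3e-04), the smallest change of the 4 somatostatin receptors tested. The gene, at chr11:113619342-113626028, overlaps Slc39a11 on the other strand, which was at 80.9 cpm in GUCY2C-hi and 97.7 cpm in GUCY2C-med cells, and whether reads were counted by strand is not given in the sources used here. Sstr3, a receptor of primary cilia in neurons, was at 5.92, 7.90, 3.71, 7.25 and 2.33 cpm against at most 0.300 cpm, with a log2 fold change of 4.85 (SE 0.52, adjusted p = 6.4e-05). Sstr4 was not tested and had at most 4 counts in any library.

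All 3 galanin receptors, which bind a neuropeptide of enteric and brain neurons, were higher in GUCY2C-hi cells. Galr1, the Gi-coupled receptor, was at 66.6, 61.1, 37.8, 73.1 and 25.3 cpm in GUCY2C-hi cells, and 1 read was counted over the 5 GUCY2C-med libraries, in mouse 12. The pooled ratio of its levels was 3250, with an exact 95% interval from 583 to 128388 that covers counting error only (adjusted p = 1.7e-06). Galr2, which acts through Gq, was at 3.50, 6.03, 3.18, 7.48 and 1.26 cpm and had no count in GUCY2C-med cells. Set against the 3 counts over the group that a count of 0 allows, its level was at least 87.5-fold higher in the GUCY2C-hi group (adjusted p = 5.1e-04). Galr3 was at 2.42, 3.92, 3.41, 5.24 and 0.756 cpm against at most 0.257 cpm, a log2 fold change of 4.48 (SE 0.80, adjusted p = 0.0015). The groups did not overlap for any of the 3, but Galr2 and Galr3 missed the threshold with the mouse as replicate block in edgeR (adjusted p = 0.0100 and 0.0169) and kept it with the block in limma-voom (adjusted p = 4.6e-04 and 0.0070). The Galr3 gene shares positions with Gcat on the same strand, which was at 0 cpm in both groups. What this did to the counts of Galr3 was not tested.

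The plot of named receptors shows the separation and also how low several of them were. In GUCY2C-med cells the highest library was under 0.5 cpm for Sstr5, Sstr3, Glp1r, Mc4r, Galr1, Galr2, Galr3, Avpr1b, Gcgr and Crhr2.

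**Figure D2:**
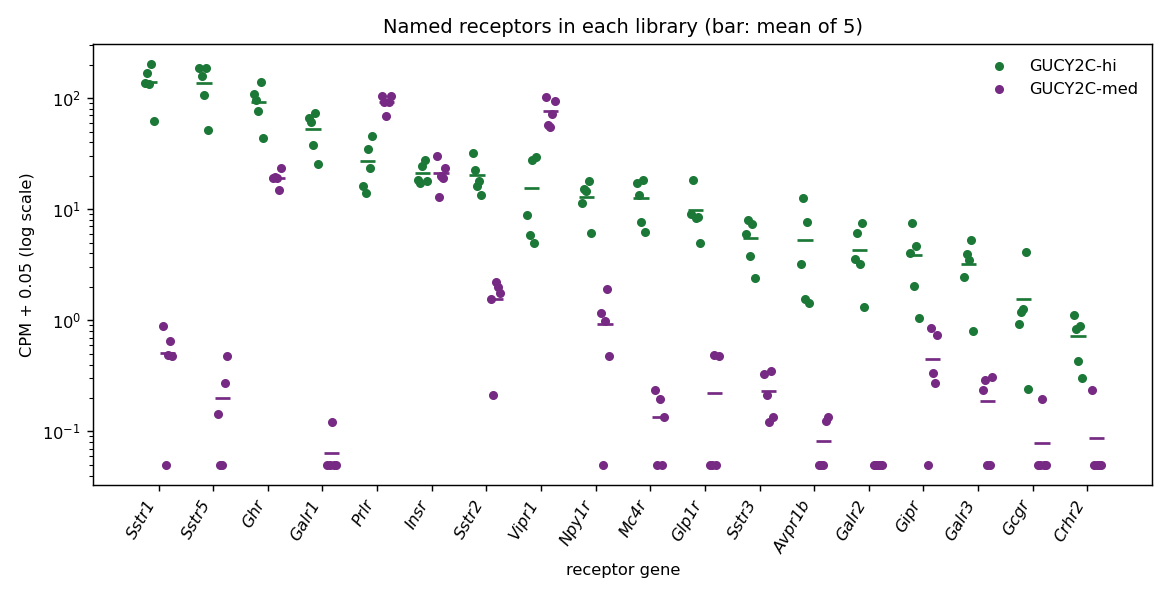
Level of the 18 receptors called or averaging at least 5 cpm in 1 of the groups, as cpm + 0.05 on a log axis, with a point for each library and a bar for the mean of 5. GUCY2C-hi points lie above GUCY2C-med points for 15 genes and below them for Prlr and Vipr1, and the groups overlap for Insr.

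Glp1r, Gipr and Gcgr, which bind GLP-1, GIP and glucagon, and Npy1r, 1 of the 3 receptors of the neuropeptide Y family, were higher in GUCY2C-hi cells, the population that holds the RNA of these hormones. The other receptors of the neuropeptide Y family were not called, Npy2r at overlapping levels and Npy5r too low to test. Glp1r, the receptor through which GLP-1 raises insulin release and slows feeding, lies at chr17:30901867-30936510 on the plus strand. It was at 9.08, 18.5, 8.25, 8.48 and 4.91 cpm in GUCY2C-hi cells, and at 0.432 and 0.428 cpm in GUCY2C-med cells of mice 12 and 15 with no count in the other 3. Its log2 fold change was 5.74 (SE 0.83, adjusted p = 4.6e-04), and 6.48 without the GUCY2C-med library of mouse 12 (adjusted p = 9.0e-04). Without both libraries of mice 12 and 15 no count of Glp1r was left in GUCY2C-med cells, and the call was kept (adjusted p = 7.8e-04). Npy1r, which binds PYY and neuropeptide Y, was at 11.3, 15.01, 14.5, 17.9 and 6.11 cpm against 1.12, 0, 0.936, 1.88 and 0.428 cpm, a log2 fold change of 3.87 (SE 0.67, adjusted p = 0.0013). No GUCY2C-hi library of either gene fell among the GUCY2C-med libraries. Npy1r missed the threshold when both libraries of mice 12 and 15 were left out (adjusted p = 0.0143, log2 fold change 3.86).

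Gipr and Gcgr were lower and their calls were less stable. Gipr, the receptor of glucose-dependent insulinotropic polypeptide, was at 3.97, 7.42, 1.97, 4.63 and 1.01 cpm in GUCY2C-hi cells and at 0, 0.803, 0.288, 0.225 and 0.685 cpm in GUCY2C-med cells, where the highest library came near the lowest GUCY2C-hi library. Its log2 fold change was 3.21 (SE 0.75, adjusted p = 0.0061). The adjusted p was 0.0264 with the mouse as replicate block in edgeR, 0.0133 in limma-voom, and between 0.0124 and 0.0185 when the GUCY2C-hi library of mouse 2, 7 or 14 or the GUCY2C-med library of mouse 12, 14 or 15 was left out. Gcgr, the glucagon receptor of the liver, was at 0.874, 1.15, 1.21, 4.09 and 0.189 cpm, and the GUCY2C-med libraries held 2 counts in all. The pooled ratio was 43.9 (exact 95% interval 11.8 to 367, counting error only, adjusted p = 0.0034). The GUCY2C-hi library of mouse 14 alone held 53 of the counts, and without it the ratio was 26.1. Without the GUCY2C-med library of mouse 14 or 15 its adjusted p was 0.0102 or 0.0111.

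Glp2r, Sctr and Vipr2, also of the secretin family, were at or near 0. Glp2r, the receptor of GLP-2, had 1 count in 1 library, and Sctr, the secretin receptor, had none in any library. Vipr2 reached at most 7 counts, in GUCY2C-hi cells of mice 7 and 14.

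Vipr1, the epithelial receptor of vasoactive intestinal peptide, ran the other way. The gene lies at chr9:121642716-121672954 on the plus strand. It was at 8.88, 5.85, 27.9, 4.93 and 29.8 cpm in GUCY2C-hi cells and at 102, 57.7, 55.4, 72.0 and 94.3 cpm in GUCY2C-med cells. No library of one group reached the other, and the GUCY2C-hi libraries fell into 3 low ones and the higher libraries of mice 12 and 15. The log2 fold change was -2.30 (SE 0.51, adjusted p = 0.0048), or 4.93-fold lower in GUCY2C-hi cells. Leaving out the GUCY2C-hi library of mouse 2 or 7, or the GUCY2C-med library of mouse 2, 12, 14 or 15, moved the adjusted p to between 0.0104 and 0.0179 with log2 fold changes between -2.32 and -2.05. Without both libraries of mice 12 and 15 the log2 fold change was -3.55 (SE 0.32, adjusted p = 2.5e-04).

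Prlr, the prolactin receptor, was the other member that was lower, and its gene lies at chr15:10177238-10349180 on the plus strand. The gene shares positions with Gm21973 on the same strand, which was at 0 cpm in both groups. What this did to the counts of Prlr was not tested. Prlr was at 16.2, 13.9, 35.0, 23.4 and 46.0 cpm in GUCY2C-hi cells and at 105, 92.6, 68.9, 92.4 and 105 cpm in GUCY2C-med cells. Its highest GUCY2C-hi libraries were again those of mice 12 and 15. The log2 fold change was -1.78 (SE 0.31, adjusted p = 0.0014), and it passed the threshold under each alternative and with each library left out. Without both libraries of mice 12 and 15 it was -2.44 (SE 0.23, adjusted p = 2.9e-04). The related receptor of growth hormone, Ghr, was higher in GUCY2C-hi cells although GUCY2C-med cells also held it. The gene lies at chr15:3317760-3583492 on the minus strand. Its libraries were at 109.5, 95.8, 76.5, 139 and 43.6 cpm against 19.2, 19.3, 19.0, 14.9 and 23.4 cpm, a log2 fold change of 2.28 (SE 0.28, adjusted p = 1.5e-04). The GUCY2C-hi libraries of Ghr were spread widely and did not reach down to the GUCY2C-med libraries, with an SD of 35.7 cpm against 2.98 cpm. Lepr, the third receptor of this class, had at most 2 counts in any library.

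Mc4r, the melanocortin receptor that restrains feeding in the hypothalamus, was at 17.01, 13.5, 7.65, 18.2 and 6.23 cpm in GUCY2C-hi cells and at most at 0.187 cpm in GUCY2C-med cells. The gene rose by 7.12 on the log2 scale (SE 0.64, adjusted p = 2.0e-05). Avpr1b, the vasopressin receptor of pituitary corticotrophs, was at 3.16, 12.5, 1.51, 7.55 and 1.39 cpm, and 2 counts were found over the GUCY2C-med libraries. The pooled ratio was 166 (exact 95% interval 45.7 to 1377, counting error only, adjusted p = 3.5e-04), and mice 7 and 14 stood above the other 3 GUCY2C-hi libraries. The ratio was 102 when the highest of them, mouse 7, was left out. Avpr1a and Avpr2, the vasopressin receptors of vessels and kidney, had no count in any library. Oxtr, the oxytocin receptor, was at 0.336, 1.63, 0.757, 0.771 and 1.83 cpm against 0.374, 0, 0.288, 0.150 and 0.257 cpm, groups that overlap, and did not pass the threshold in edgeR (log2 fold change 2.29, SE 0.70, adjusted p = 0.0226) but did in DESeq2 (adjusted p = 0.0062).

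Crhr2, which binds urocortins, was the lowest of the 15 receptors called higher. Its 5 GUCY2C-hi libraries held 16, 13, 5, 11 and 4 counts and the GUCY2C-med libraries 2 counts, both in mouse 2. The pooled ratio was 20.7 (exact 95% interval 5.42 to 175, counting error only, adjusted p = 0.0064). The adjusted p was 0.0160 with the mouse as replicate block in edgeR and between 0.0134 and 0.0178 without the GUCY2C-med library of mouse 7, 12, 14 or 15. Without the GUCY2C-hi library of mouse 2, 7 or 14 the gene no longer passed the filter. Crhr1 reached 7 counts and Calcrl 9 counts in a library, and Calcr had none.

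Insr, the insulin receptor, did not separate the groups. The gene lies at chr8:3122061-3279617 on the minus strand. It was at 18.4, 17.1, 24.3, 27.8 and 17.9 cpm in GUCY2C-hi cells and at 30.1, 12.8, 19.95, 19.0 and 23.5 cpm in GUCY2C-med cells, and the groups overlapped throughout. The log2 fold change was 0.0027 (SE 0.24, adjusted p = 0.996). Igf1r, which binds the insulin-like growth factors, averaged 2.83 cpm ± 2.13 and 2.78 cpm ± 1.39 (SD, n = 5), with a log2 fold change of 0.03 (SE 0.51). Neither value shows that the groups were alike, since an SE of 0.24 or 0.51 leaves room for a change.

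Receptors for cholecystokinin, neurotensin and opioid peptides, and the PACAP receptor gene Adcyap1r1, were low and did not separate the groups. Cckbr was at 0, 1.75, 1.21, 0 and 4.09 cpm in GUCY2C-hi cells and at 1.03, 0, 2.23, 1.35 and 1.11 cpm in GUCY2C-med cells. Adcyap1r1, Ntsr2 and Oprl1 were likewise highest in the GUCY2C-hi library of mouse 15, at 3.34, 4.79 and 3.40 cpm, and at or near 0 in the GUCY2C-med library of mouse 7. Their log2 fold changes lay between 0.07 and 0.37, that of Oprk1 was -1.38, and that of Npy2r was 1.22, with adjusted p values of at least 0.275. The 3 tachykinin receptors reached at most 9 counts in a library, Tacr1 in GUCY2C-hi cells of mouse 15, and Tacr2 had none. Cckar, Ntsr1, Ghsr, Tacr3, Oprm1, Oprd1 and Npy5r had at most 1, 4, 3, 2, 3, 4 and 7 counts in any library.

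Between the groups and among GUCY2C-hi libraries, the levels of the receptors called moved with the marker lists. All 15 receptors that were higher had their lowest GUCY2C-hi value in mouse 15, and for 12 of them mice 12 and 15 were the lowest pair, which were also the libraries lowest in enteroendocrine genes and highest in enterocyte genes. Summed over the 15, GUCY2C-hi libraries of mice 2, 7, 12, 14 and 15 held 589, 592, 415, 702 and 220 cpm. GUCY2C-med libraries held 23.6, 20.7, 23.7, 20.2 and 27.99 cpm, most of it Ghr. In these GUCY2C-med libraries the enteroendocrine genes were at 358, 96.3, 391, 391 and 227 cpm, a different order. Vipr1 and Prlr together were at 25.1, 19.7, 62.9, 28.4 and 75.8 cpm in GUCY2C-hi cells and between 124 and 206 cpm in GUCY2C-med cells. A list of 12 proliferation genes also moved with the groups, with 10 called lower in GUCY2C-hi cells and summed levels between 88.3 and 235 cpm against 312 to 714 cpm in GUCY2C-med cells, although 0 of the 10 kept the call with the mouse as replicate block in edgeR and 3 did in limma-voom. The part of enteroendocrine, enterocyte, proliferating, Paneth and goblet cell content in these results was not tested.

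Adcyap1r1, Cckbr, Ntsr2 and Oprl1, grouped after their values were seen, varied across libraries in another way, alongside several other lists. Together they were at 1.14, 6.69, 5.83, 1.62 and 15.6 cpm in GUCY2C-hi cells and at 6.09, 0.0803, 9.36, 7.28 and 2.91 cpm in GUCY2C-med cells. The forebrain neuron genes were at 248, 893, 983, 153 and 2490 cpm and at 1407, 817, 1822, 1407 and 1033 cpm in the same order. Both were highest in the GUCY2C-hi library of mouse 15 and, among GUCY2C-med libraries, in that of mouse 12. A list of 8 enteric neuron genes, of which 1 was called higher, was at 284 cpm in the former library and fell to 3.37 cpm in the GUCY2C-med library of mouse 7, where the 4 receptors were lowest. Without the 4 libraries highest in forebrain neuron genes, 11 receptors were higher and 1 was lower in GUCY2C-hi cells, and the calls of Gipr, Gcgr, Crhr2, Avpr1b and Vipr1 were lost at adjusted p values between 0.0149 and 0.0291, with 4 libraries against 2. Calls over all genes tested fell as well, from 2186 higher and 1381 lower to 918 and 109. The log2 fold change without these libraries was 2.61 for Gipr and -2.63 for Vipr1, both in the same direction as in all libraries, while 1 count of Avpr1b and none of Gcgr or Crhr2 was left in GUCY2C-med cells. Among receptors that kept their call, the change was larger in size than in all libraries for Npy1r (6.11), Sstr1 (9.55) and Sstr2 (4.599). It was also larger in size for Sstr3 (5.57), Mc4r (8.14), Ghr (2.33) and Prlr (-2.12). The same held for Galr1 (12.67) and Galr2 (9.11), with no count left in GUCY2C-med cells. It was smaller for Galr3 (3.895), Sstr5 (9.547) and Glp1r (5.706).

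**Figure D3:**
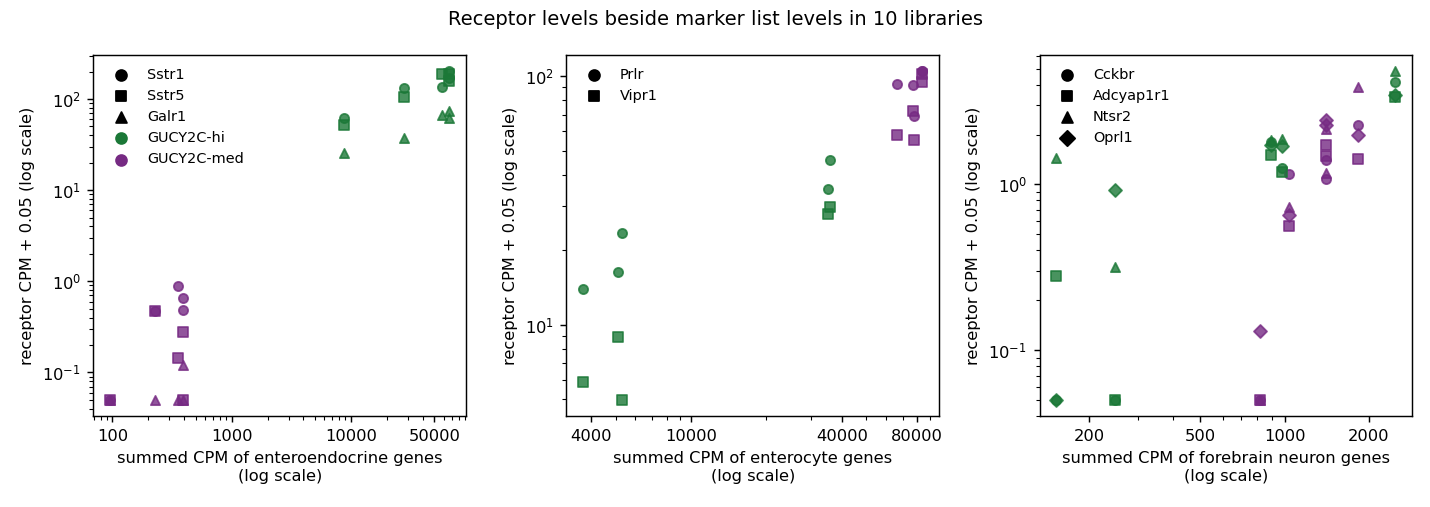
Level of receptors (cpm + 0.05, log axis) against the summed level of a marker list (cpm, log axis) in the 10 libraries, GUCY2C-hi green and GUCY2C-med purple. Sstr1, Sstr5 and Galr1 are lowest among green points where enteroendocrine genes are lowest, Prlr and Vipr1 are highest where enterocyte genes are highest, and the 4 receptors on the right are highest in the library with 2490 cpm of forebrain neuron genes.

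Levels of different receptors were compared per length, as deposited FPKM. In GUCY2C-hi cells the order was Sstr1 at 81.5 FPKM ± 29.8, Ghr at 62.2 ± 22.0, Sstr5 at 56.9 ± 24.3, Galr1 at 20.2 ± 7.79, Sstr2 at 14.3 ± 5.50 and Vipr1 at 12.5 ± 10.0 (SD, n = 5). The ranges of mean ± SD overlapped between neighbours in this order, apart from the step between Sstr5 and Galr1. The receptors were measured in the same libraries, so this overlap does not settle their order. Within libraries, Sstr1 was above Ghr and Galr1 above Sstr2 in all 5. The order of Ghr and Sstr5, and that of Sstr2 and Vipr1, differed between libraries. With cpm per kilobase of the gene length in the table, Sstr5 ranked 2, Galr1 3 and Ghr 4, while Sstr1 and Sstr2 held ranks 1 and 5. In GUCY2C-med cells Vipr1 led at 50.8 FPKM ± 14.6, followed by Prlr at 33.5 ± 5.71, Ghr at 10.7 ± 1.44 and Insr at 5.89 ± 1.97, and each other receptor was under 1 FPKM on average.

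The genes of the ligands were examined beside those of the receptors. Of 42 ligand genes, 23 were tested, 15 were higher and 0 were lower (0 also at an unadjusted p under 0.05, in limma-voom and in DESeq2), with a median log2 fold change of 6.82, while 13.9% of all genes tested were higher. The largest changes were in Pyy (11.77, SE 0.68), Gip (11.30, SE 1.04) and Nts, which encodes neurotensin (10.34, SE 1.27), all hormones of enteroendocrine cells. Per length, Sst was at 5213 FPKM ± 2174, Gcg at 18483 ± 10993, Gip at 41446 ± 9882, Pyy at 6205 ± 2572 and Ucn3 at 226 ± 139 (SD, n = 5), each above its receptors called higher by this measure. Gal was at 3.03 FPKM ± 1.92, below the 20.2 FPKM of Galr1. Other ligands were below their receptors too: Pomc at 2.24 FPKM ± 0.69 beside 4.98 FPKM of Mc4r, Avp at 0.34 FPKM ± 0.27 beside 2.57 FPKM of Avpr1b, and Gh at 0 FPKM beside 62.2 FPKM of Ghr. These ligands were chosen after their values were seen, as those of receptors called higher. Npy, Penk and Tac2 were among the 8 ligand genes tested and not called, and Prl, Gh, Oxt and Lep had at most 1 count in any library.

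**Figure D4:**
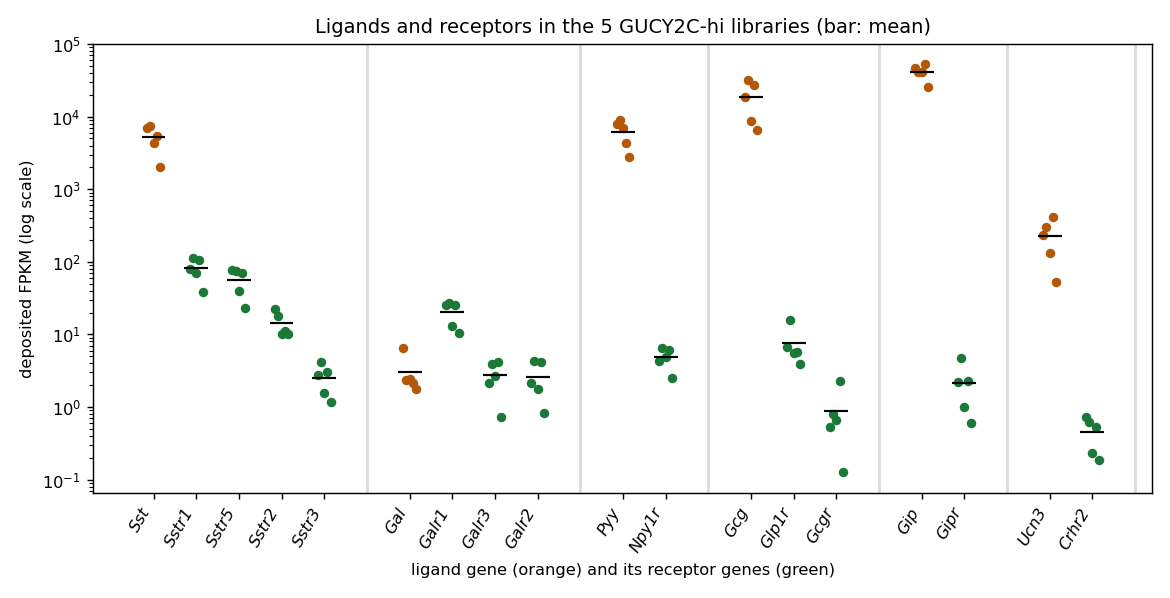
Deposited FPKM (log axis) of 6 ligand genes (orange) and of their receptors called higher (green) in the 5 GUCY2C-hi libraries, a point for each library and a bar for the mean. Of the ligands drawn, Gal lies below Galr1 and the others lie above their receptors. Pomc, Avp and Gh, the ligands of Mc4r, Avpr1b and Ghr, are not drawn.

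Receptors work with accessory proteins, with arrestins and kinases that switch them off, and with effectors. Of 15 accessory, arrestin and receptor kinase genes in the table, 14 were tested, 4 were higher and 0 were lower (1 at an unadjusted p under 0.05, and 0 in limma-voom and in DESeq2), with a median log2 fold change of 0.80. Ramp3, which joins calcitonin-type receptors at the membrane, changed most (5.89, SE 0.90, adjusted p = 6.3e-04). Among those called with at least 5 cpm on average, the receptor kinase Grk3 (1.87, SE 0.31) and the arrestin Arrb2 (1.17, SE 0.28) came next. Grk5 falls outside the rule for named genes and was named after its values were seen. It was the remaining gene of the 4, with a change larger than those of Grk3 and Arrb2 (2.48, SE 0.50). With the mouse as replicate block in edgeR Ramp3 and Grk3 passed and the other 2 did not. A list of 8 endothelial genes, of which 3 were called higher, summed to between 9.13 and 28.3 cpm in GUCY2C-hi and between 3.23 and 4.34 cpm in GUCY2C-med libraries, and its part in the level of Ramp3 was not tested. Of 20 effectors of insulin and cytokine receptors, 2 were higher and 0 lower (3 at an unadjusted p under 0.05, 0 in limma-voom and 1 in DESeq2), with a median log2 fold change of 0.13. They were Grb14, an adapter that dampens insulin receptor signalling (3.16, SE 0.35, adjusted p = 7.4e-05), and Irs1, a docking protein at under 2 cpm (5.26, SE 0.79), also named after its values were seen. Both counts stand beside the 13.9% of all genes tested that were higher, and 2 of 20 is a smaller share than that. At an adjusted p under 0.05 the counts were 7 higher and 1 lower among accessory genes and 4 higher and 2 lower among effectors.

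Promoter sequence was examined because many receptors rose together. The RefSeq table holds 14 promoters of 10 of the receptors described above, and the 250 bases before each start on GRCm38.p6 were searched on both strands for CAGATG, the E-box that NeuroD-type factors bind, for TATAAA, and for TGACG, the core of the cAMP response element. Of the receptors called higher, Sstr1, Sstr5, Galr1, Galr3, Mc4r, Avpr1b and Gipr had no promoter among the 14. The 10 promoters of receptors that were higher came from 8 genes. The 4 of receptors that were lower came from 2 genes, Vipr1 and Prlr. The E-box and the core can share the letters TG. The E-box was found in 1 of 10 promoters of receptors that were higher and in 14.4% of all 32851 promoters, TATAAA in 2 and in 12.4%, and TGACG in 2 and in 17.8%. Of 4 promoters of the receptors that were lower, the E-box was in 1, TGACG in 2 and TATAAA in 0. The 3 below, 2 of receptors that were higher and 1 of the receptor that fell most, show where such letters fell, with capitals for the matches. A match is a description of the letters only.
Sstr2, chr11:113619077-113619326, plus strand: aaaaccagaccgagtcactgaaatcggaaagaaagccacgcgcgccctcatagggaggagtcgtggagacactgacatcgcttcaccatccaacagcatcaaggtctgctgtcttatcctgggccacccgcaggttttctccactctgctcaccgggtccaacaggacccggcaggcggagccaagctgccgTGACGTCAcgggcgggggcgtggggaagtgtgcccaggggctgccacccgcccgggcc
Galr2, chr11:116280689-116280938, plus strand: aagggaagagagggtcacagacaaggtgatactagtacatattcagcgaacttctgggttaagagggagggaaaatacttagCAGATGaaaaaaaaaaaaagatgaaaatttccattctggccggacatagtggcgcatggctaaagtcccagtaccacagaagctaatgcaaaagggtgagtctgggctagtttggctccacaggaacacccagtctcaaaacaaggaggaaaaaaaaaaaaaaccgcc
Vipr1, chr9:121642466-121642715, plus strand: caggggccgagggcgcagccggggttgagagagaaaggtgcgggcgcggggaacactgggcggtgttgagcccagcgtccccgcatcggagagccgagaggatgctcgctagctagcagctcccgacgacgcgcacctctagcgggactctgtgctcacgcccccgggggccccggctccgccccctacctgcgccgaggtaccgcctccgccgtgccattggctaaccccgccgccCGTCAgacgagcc
In Sstr2 the core was found on both strands in overlapping positions, 58 and 55 bases before the start. The E-box of Galr2 began 168 bases before the start, and the core in Vipr1 began 13 bases before it, on the minus strand.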

How the data were processed

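Both groups of sorted cells were measured by RNA sequencing, in 10 libraries, 5 per group. The number in each library's label (2, 7, 12, 14 or 15) was taken as that of the mouse. The study's methods state that 5 mice were sorted into the GUCY2C-hi and GUCY2C-med groups, which was read as each mouse giving both. The correlation of same-numbered deviations from the group means was -0.07, -0.17, 0.27, -0.10 and 0.05, so the pairing rests on this reading of the design and labels. The deposited counts are raw whole numbers for each gene, made for the authors by a sequencing provider that used STAR for alignment. Deposited FPKM values relate counts to gene length and depth. The submitters' notes name limma 3.40.6, edgeR 3.26.8 and the build mm9, whereas the positions of 45 of 45 members overlapped those of GRCm38.p6 (RefSeq) and 6 of 44 those of NCBIM37. The deposited comparisons, which hold the authors' fold changes and p-values, and 10 columns of normalized values per library were not used.

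The main test was the quasi-likelihood test of edgeR 4.0.16 in R 4.3.3, with TMM factors and no term for the mouse. Alternatives used limma 3.58.1 and DESeq2 1.42.0, and tables were made in Python 3.11.15. The filter kept a gene above 0.5 cpm in 3 or more libraries. Calls needed an adjusted p (Benjamini-Hochberg) below 0.01, and the common biological coefficient of variation came to 0.458. The script was tested on simulated data. Pooled ratios are given where a group held 1 to 3 counts, with exact (Clopper-Pearson) 95% intervals. Intervals and floors cover counting error only.

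Receptors called, or averaging at least 5 cpm in a group, are given by library. From each other list, the 3 genes changed most in each direction among those called with at least 5 cpm on average are named. The members and lists were chosen with earlier results of these data known. Results were recomputed in limma-voom and DESeq2, with the mouse as replicate block in edgeR or limma-voom, with library size, RLE or upper-quartile factors, without the filter or with 10 counts required in each library, with a threshold of 0.05, and without each library, without mice 12 and 15, or, chosen after the data were seen, without the 4 libraries highest in forebrain neuron genes.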

Additional observations from a re-analysis of the deposited data

Results flagged for a closer look

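Among the groups examined, in each of which a library held more than 3 counts, 1 value stood apart within its group. Groups under that limit were not examined, among them the GUCY2C-med libraries of Galr1, Gcgr and Crhr2, where 1 library held all counts. Gcgr, the glucagon receptor, was at 4.09 cpm in the GUCY2C-hi library of mouse 14, while the other 4 GUCY2C-hi libraries lay between 0.189 and 1.21 cpm, so that the gap was more than 0.71 of the whole range, the 95% critical value for 5 samples. In all, 37 groups of 5 libraries were examined in this way, and chance alone marks about 1 in 20 groups. The 37 were not all the groups over the limit. Npy2r in GUCY2C-hi cells, for example, was not among them. It was at 2.02 cpm in mouse 15 and between 0.0757 and 0.538 cpm in the other 4 libraries, a gap also above 0.71 of the range.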

How the results depend on the processing

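The count of receptors that were higher stayed between 11 and 16 under all alternatives but 1, with 11 under the replicate block in edgeR, 14 under the replicate block in limma-voom and 16 in DESeq2, where Oxtr was added. It was 1 with at least 10 counts in every library, a filter that removes receptors at or near 0 in GUCY2C-med cells. The same filter left 6 of the 15 ligand genes called higher. Leaving out each library in turn gave 12 to 15 receptors that were higher and 1 to 2 that were lower, and leaving out the 4 libraries highest in forebrain neuron genes left 1 that was lower, Prlr. Between 14 and 16 ligand genes were called higher with a library left out. Accessory genes called higher fell from 4 to 2 with the replicate block (2 in edgeR, 2 in limma-voom) and rose to 7 at a threshold of 0.05, where 1 was lower, and they ranged from 3 to 5 higher and 0 to 1 lower with a library left out (1 without the GUCY2C-hi library of mouse 15). Effectors called higher rose from 2 to 4 in DESeq2, with library size factors and at 0.05, and those lower from 0 to 1 in DESeq2 and 2 at 0.05. With a library left out they were 2 to 4 higher (4 without the GUCY2C-hi library of mouse 15) and 0 to 2 lower (2 without that of mouse 12). The log2 fold change of Insr ran from -0.13 to 0.20 with a library left out, so no direction is given. Of 379 recomputed fold changes of the named receptors, 343 kept their direction and side of the threshold, 32 kept the direction only, and the 4 that changed sign were those of Insr. The highest adjusted p over the alternatives was 0.0291 for Vipr1, 0.0289 for Gipr, 0.0283 for Crhr2, 0.0192 for Gcgr, 0.0169 for Galr3, 0.0149 for Avpr1b, 0.0143 for Npy1r and 0.0100 for Galr2, and under 0.01 for the other 9 receptors called. By cpm per kilobase Ghr ranked 4, Sstr5 2, Galr1 3 and Vipr1 9. The cause of these shifts was not tested, beyond the low counts named. Without TMM factors the median of all genes moved from 0.09 to 0.39 on the log2 scale, and 15 receptors were called higher and 2 lower. The 19 receptors not tested had at most 9 counts in any library, and 5 of them had none.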
